A study of Mus musculus with 33 samples.

Results

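Mouse mammary organoids with 2 floxed Trps1 alleles were compared with 1 or 2 floxed Cdh1 alleles on 2 days of culture, 14 and 28, and the quantity reported here is the interaction of day and Cdh1 dose. For each gene the difference between Cdh1F/F;Trps1F/F and Cdh1+/F;Trps1F/F organoids at day 28 was taken, and the same difference at day 14 was subtracted. The contrast uses 8 of the 33 samples of the study, chosen by genotype and day as the labels give them, with 2 libraries in each of 4 groups. The study also profiled HC11 mammary epithelial cells, mammary tumors and another organoid genotype, Cdh1F/F;Trps1+/+. The 4 libraries of that genotype are outside the contrast. They entered the estimate of the spread and the filter that decided which genes were kept. All organoids were primary cultures grown in Matrigel and transduced with AdCre, an adenovirus that carries Cre recombinase, so the labelled genotype is that of the mice and not a measured deletion in each cell. F denotes a floxed allele. The 4 groups shared the Trps1F/F genotype, the virus and the culture, and no control without virus or with intact Cdh1 on both alleles is part of the contrast. Strain and age are not stated in the labels, and nothing says that the 2 libraries of a group came from separate cultures, so p-values measure the spread between libraries, which may be technical.

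Cdh1 encodes E-cadherin, the adhesion molecule of epithelial adherens junctions, which binds the same molecule on neighbouring cells and is tied to actin through beta-catenin and alpha-catenin. Its loss is the hallmark of invasive lobular breast cancer. Trps1 is a GATA-type zinc finger protein that represses transcription and is abundant in mammary epithelium. An organoid culture can hold luminal and basal epithelial cells and also cells carried over from the gland's surroundings, such as fibroblasts, adipocytes, muscle and macrophages.

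Values are levels on the scale of log2(normalized count + 1), or differences of such levels. A positive interaction means that Cdh1F/F stood higher relative to Cdh1+/F at day 28 than at day 14, and the same number is the day 14 to day 28 change in Cdh1F/F less that in Cdh1+/F. Both genotypes in every statement below are Trps1F/F unless Trps1+/+ is named. Libraries of the contrast held 14858175 to 24826253 reads. Mitochondrial transcripts took 1.76% to 2.33% of reads at day 14 and 3.34% to 4.80% at day 28, with the genotypes overlapping on both days. The targeted genes were read first. Trps1 measured 9.50 and 9.98 in Cdh1+/F and 11.39 and 11.27 in Cdh1F/F libraries at day 14, and 9.45 and 10.04 and then 11.23 and 11.05 at day 28, below the 13.51 to 13.96 of the Trps1+/+ organoids in every library. Its interaction was -0.19 ± 0.26 (SE, adjusted p = 0.679), so the difference in Trps1 between the 2 Cdh1 genotypes did not pass the test for a change between days. Cdh1 measured 13.52 and 13.50 in Cdh1+/F and 13.60 and 13.58 in Cdh1F/F libraries at day 14, and 13.04 and 13.15 and then 13.81 and 13.94 at day 28. Cdh1 transcript was thus not lower in the organoids with 2 floxed Cdh1 alleles, and its interaction was 0.70 ± 0.12 (SE, adjusted p = 0.00163). A count over the whole gene cannot show removal of the floxed part, because reads outside that part still count.

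The marker check gave epithelium in every library and other cell types at levels that differed with genotype. The median level of 7 luminal markers lay between 12.40 and 13.31, and no luminal marker was at 0 in any library. Fibroblast markers (7 genes) had medians of 15.64 and 15.66 in Cdh1+/F at day 14, 15.71 and 15.29 in Cdh1+/F at day 28, 11.14 and 11.02 in Cdh1F/F at day 14 and 8.96 and 8.57 in Cdh1F/F at day 28. Skeletal muscle markers (8 genes) read 10.04 and 10.25, 12.004 and 11.76, 6.61 and 6.53 and 5.87 and 5.42 in the same order. In that order macrophage markers (7 genes) read 8.96 and 9.11, 7.72 and 7.90, 6.08 and 6.57 and 5.33 and 4.97. They were lower at day 28 in both genotypes. Endothelial markers (6 genes) read 6.63 and 6.41, 5.74 and 5.34, 4.79 and 5.04 and 3.05 and 3.72. Basal markers (6 genes) read 11.23 and 11.17, 11.59 and 11.45, 11.25 and 11.29 and 10.96 and 10.815. Schwann markers (4 genes) read 4.19 and 3.92, 4.51 and 4.59, 4.69 and 4.54 and 4.61 and 4.97. Adipocyte markers (5 genes) had medians of 3.82 to 4.28 in the 4 libraries of day 14, 8.30 and 7.76 in Cdh1+/F at day 28 and 2.03 and 0 in Cdh1F/F at day 28, where 3 of the 5 markers were at 0 in replicate 2. The highest adipocyte marker still read 7.35 and 7.80 in Cdh1F/F at day 28. Median levels of the fibroblast and muscle markers were thus lower in Cdh1F/F libraries on both days, and by more at day 28. In bulk RNA, fewer cells of a type and less RNA per cell cannot be told apart, and the part of cell composition in the results below was not tested.

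The relation between the 2 Cdh1 genotypes changed with day in 19.2% of genes. Of 15860 genes kept, 3038 passed an adjusted p of 0.05 in limma, 1178 with a positive interaction (7.43% of genes) and 1860 with a negative one (11.7%). The interaction was 2-fold or more in 1543 of them, 434 positive and 1109 negative. Over all kept genes the median interaction was -0.01. The median size of the dose difference among the called genes was 0.65 at day 14 and 1.30 at day 28, and among all kept genes it was 0.31 and 0.44. The difference had the same sign on both days and was larger at day 28 in 67.2% of the negative calls and in 60.9% of the positive calls. The share among all kept genes was 55%. It changed sign between days in 24.9% and 30.5% (21.3% of all kept genes), and shrank in 7.96% and 8.66% (23.7% of all kept genes). These shapes are built from the differences of the contrast that made the calls and are given as a description. Left out 1 at a time, 3 libraries each lowered the count of calls by over 1.5 times, to 1961 (Cdh1F/F day 14 replicate 2), 1990 (Cdh1+/F day 28 replicate a) and 2015 (Cdh1F/F day 14 replicate 1). Without them positive calls numbered 669, 742 and 722, and without Cdh1+/F day 14 replicate b they numbered 772.

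**Figure D1:**
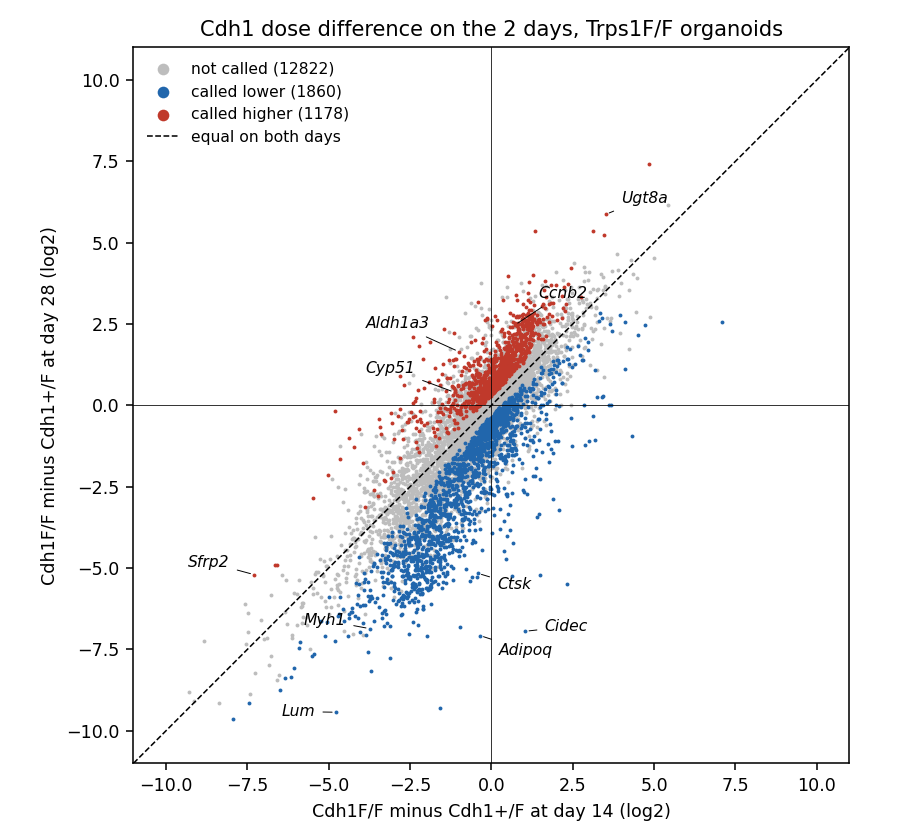
Each point is 1 of 15860 genes, with the Cdh1F/F minus Cdh1+/F difference (log2, both Trps1F/F, 2 libraries a group) at day 14 on the x axis and at day 28 on the y axis. Called genes are coloured, the dashed line marks equal differences, and the cloud of 1860 negative calls runs far below that line while the 1178 positive calls stay closer to it.

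Negative calls mostly combined a higher mean at day 28 in Cdh1+/F with a lower one in Cdh1F/F, as in 1412 of 1860 (75.9%, against 20.1% of all kept genes). Positive calls combined a lower mean at day 28 in Cdh1+/F with a higher one in Cdh1F/F in 692 of 1178 (58.7%, against 13.7%). These day changes are parts of the contrast that made the calls and are given as a description. In Cdh1F/F;Trps1+/+ organoids, which are outside the contrast, the day change was nearer to that of Cdh1F/F;Trps1F/F than to that of Cdh1+/F;Trps1F/F in 78.5% of the negative calls, 64.7% of the positive calls and 60.7% of all kept genes. A scaling that set the median of 30 luminal epithelial genes equal in all libraries, chosen after the data were seen, moved the split of calls to 430 positive of 4104 (10.5%, against 38.8% with the deposited scaling) and the median interaction of all genes to -0.33. Under this luminal scaling the interaction of Cdh1 was 0.38 with adjusted p = 0.104.

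Lists of genes with known roles are described below by how many kept members were called in each direction, to be read against 7.43% for positive and 11.7% for negative calls. A list's members are not independent of each other.

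**Figure D2:**
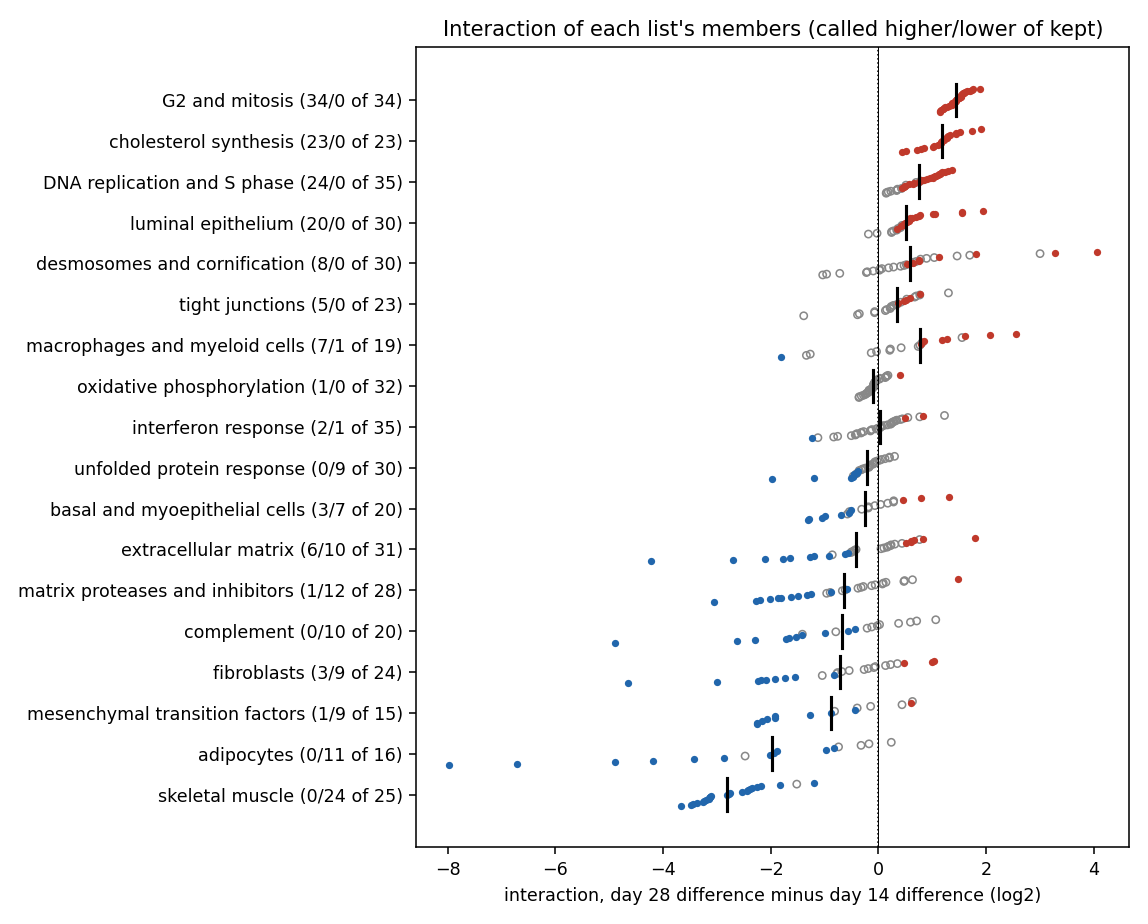
Points are the interactions (log2) of single members of 18 lists, red for called positive, blue for called negative and open for not called, with the list median as a black bar and the median of all genes as a dotted line. All 34 members of the mitosis list and all 23 of the cholesterol list lie to the right of 0, and all 25 of the skeletal muscle list to the left.

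Genes of mitosis gave the most uniform positive interaction. All 34 kept members of the list for G2 phase and mitosis were called positive, with a median of 1.45 and a range of 1.14 to 1.89. The median level of the list was 6.90 and 7.33 in Cdh1+/F and 8.14 and 8.30 in Cdh1F/F libraries at day 14. At day 28 it was 6.96 and 7.41 and 9.98 and 9.76, so the genotypes stood apart on both days and 2.56 apart (median over members) at day 28 against 1.12 at day 14. Ccnb2, a mitotic cyclin that activates Cdk1, measured 7.05 and 7.40 in Cdh1+/F and 7.87 and 7.99 in Cdh1F/F libraries at day 14, and 7.02 and 7.42 and then 9.69 and 9.67 at day 28. Its interaction was 1.75 ± 0.24 (SE, adjusted p = 0.000338), a 3.36-fold change of the Cdh1F/F to Cdh1+/F ratio. Plk1, a kinase of mitotic entry and spindle assembly, read 6.65 and 6.83 at day 14 and 6.49 and 6.78 at day 28 in Cdh1+/F organoids, against 7.50 and 7.63 and then 9.23 and 9.10 in Cdh1F/F organoids, with an interaction of 1.71 ± 0.23 (SE, adjusted p = 0.000323). In both genes the 2 Cdh1+/F groups overlapped between days and both Cdh1F/F day 28 libraries stood above all others of the contrast. Cdc20, which activates the anaphase-promoting complex, had 1.59 (adjusted p = 0.000457), and Kif20a, a kinesin of cytokinesis, had 1.44 (adjusted p = 0.000541). In the Trps1+/+ organoids the list's median level was 7.91 and 7.99 at day 14 and 8.04 and 7.58 at day 28.

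The S phase list followed with smaller values: 24 of 35 members were called positive and none negative, with a median of 0.76. Rrm2, the subunit of ribonucleotide reductase that makes deoxynucleotides in dividing cells, measured 9.17 and 9.22 at day 14 and 10.74 and 10.54 at day 28 in Cdh1F/F organoids, and 7.83 and 8.07 and then 8.02 and 8.19 in Cdh1+/F organoids, with an interaction of 1.29 ± 0.20 (SE, adjusted p = 0.000768). Ccne1, the cyclin of S phase entry, had 1.19 (adjusted p = 0.0021), Rfc5, a subunit of the clamp loader, 1.16 (adjusted p = 0.000323), and Chaf1a, which deposits histones on new DNA, 1.06 (adjusted p = 0.000562). The count fell to 14 without Cdh1+/F day 28 replicate a and to 10 under the luminal scaling, while the mitosis list kept 32 of 34 positive calls under that scaling. Among D cyclins and inhibitors of cyclin-dependent kinases 2 of 15 were called positive and 3 negative, with 1 negative without Cdh1+/F day 28 replicate a and 1 positive and 5 negative under the luminal scaling. The inhibitor Cdkn1c had -1.59 (adjusted p = 0.0116), or -1.44 with adjusted p = 0.0548 without Cdh1+/F day 28 replicate a, and Cdkn1a had -0.81 (adjusted p = 0.00504), whereas Rbl1, a retinoblastoma family protein, had 0.86 (adjusted p = 0.00548), or 0.54 with adjusted p = 0.0732 under the luminal scaling.

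**Figure D3:**
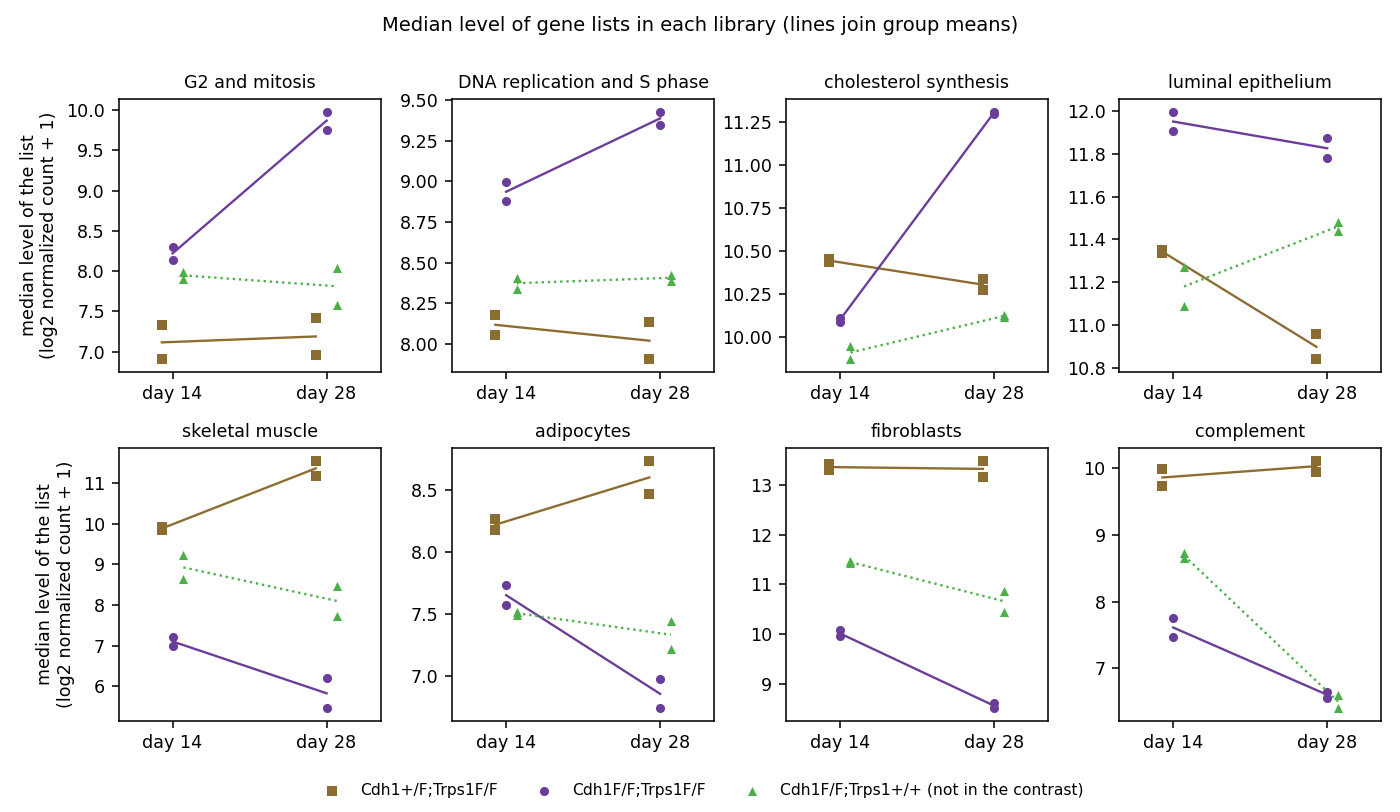
The median level of 8 lists (log2 normalized count + 1) is shown for each library at day 14 and day 28, with squares for Cdh1+/F;Trps1F/F, circles for Cdh1F/F;Trps1F/F and triangles for Cdh1F/F;Trps1+/+, which is not in the contrast; lines join group means. The mitosis and cholesterol lists are higher at day 28 mainly in Cdh1F/F;Trps1F/F, and the muscle list is higher at day 28 in Cdh1+/F;Trps1F/F and lower in the other genotypes.

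Cholesterol synthesis was another pathway in which every kept member was called. Cells make cholesterol from acetyl-CoA through mevalonate, squalene and lanosterol, and when sterols are scarce the SREBP2 factor raises these enzymes. All 23 kept genes were positive, with a median of 1.19 and a range of 0.44 to 1.91. The list's median level was 10.44 and 10.46 in Cdh1+/F and 10.11 and 10.09 in Cdh1F/F at day 14, and 10.27 and 10.34 and then 11.31 and 11.29 at day 28. Cdh1F/F libraries were thus the lower ones at day 14 and the higher ones at day 28. Cyp51, the lanosterol demethylase, measured 11.32 and 11.28 in Cdh1+/F and 10.17 and 10.18 in Cdh1F/F libraries at day 14, and 11.60 and 11.48 and then 11.88 and 11.99 at day 28. Its interaction was 1.52 ± 0.11 (SE, adjusted p = 5.26e-06), with the order of the genotypes exchanged between days and no overlap on either day. Sqle, the squalene epoxidase, read 11.29 and 11.21 at day 14 and 10.96 and 11.07 at day 28 in Cdh1+/F organoids, against 10.91 and 10.87 and then 11.999 and 11.99 in Cdh1F/F organoids, with 1.33 ± 0.12 (SE, adjusted p = 1.55e-05), and Nsdhl, a sterol dehydrogenase, had 1.22 (adjusted p = 2.7e-05). Under the luminal scaling 19 of the 23 were called, all positive. The fatty acid synthesis list did not share this pattern in its counts, with 3 of 20 members called positive and 4 negative. Positive calls became 1 without Cdh1+/F day 14 replicate b or Cdh1F/F day 14 replicate 2, and the luminal scaling gave none positive and 7 negative. Acly, which makes cytosolic acetyl-CoA for both pathways, was positive at 0.63 (adjusted p = 0.00138), or 0.31 with adjusted p = 0.129 under the luminal scaling, while Acacb and Dgat2, an acetyl-CoA carboxylase and an enzyme of triglyceride assembly, were negative at -1.55 (adjusted p = 0.000183) and -1.11 (adjusted p = 0.00558).

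Promoters of both fully called lists are printed because their members moved together. The stretches below are the 250 bases before the annotated start, from RefSeq on GRCm38.p6, 5′ to 3′ on the strand of the gene. Capitals mark CCAAT (or ATTGG, its reverse), the box bound by the NF-Y factor. In the first pair they also mark any TCACNCCAC (or GTGGNGTGA), a sterol regulatory element bound by SREBP factors. Hmgcs1, the synthase ahead of mevalonate, was chosen after its values were seen because its stretch holds both motifs. The Cyp51 stretch holds CCAAT alone. The interaction below is that of Hmgcs1. It was 1.22 (adjusted p = 4.34e-05). The windows are Hmgcs1 chr13:119690101-119690350, plus strand, Cyp51 chr5:4104698-4104947, minus strand, Plk1 chr7:122159185-122159434, plus strand, and Ccnb2 chr9:70421555-70421804, minus strand.
Hmgcs1: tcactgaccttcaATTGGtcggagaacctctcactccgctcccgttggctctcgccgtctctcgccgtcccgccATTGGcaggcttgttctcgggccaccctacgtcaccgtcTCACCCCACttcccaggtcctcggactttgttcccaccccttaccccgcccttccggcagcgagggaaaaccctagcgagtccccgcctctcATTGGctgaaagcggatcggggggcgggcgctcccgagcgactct
Cyp51: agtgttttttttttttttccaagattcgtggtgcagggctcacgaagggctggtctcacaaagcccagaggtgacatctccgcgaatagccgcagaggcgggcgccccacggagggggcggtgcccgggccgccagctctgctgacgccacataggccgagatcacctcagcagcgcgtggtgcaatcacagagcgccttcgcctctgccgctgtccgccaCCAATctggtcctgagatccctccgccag
Plk1: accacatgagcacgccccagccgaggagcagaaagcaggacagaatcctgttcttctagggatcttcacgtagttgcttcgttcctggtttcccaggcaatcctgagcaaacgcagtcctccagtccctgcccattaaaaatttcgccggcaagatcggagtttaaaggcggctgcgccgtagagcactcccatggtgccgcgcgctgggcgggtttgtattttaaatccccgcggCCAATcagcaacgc
Ccnb2: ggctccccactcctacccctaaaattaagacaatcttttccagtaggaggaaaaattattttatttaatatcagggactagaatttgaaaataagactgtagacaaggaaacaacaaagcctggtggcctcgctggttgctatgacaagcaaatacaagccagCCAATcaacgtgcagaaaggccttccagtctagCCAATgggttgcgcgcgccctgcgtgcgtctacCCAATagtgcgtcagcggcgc

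A CCAAT match on either strand was present in 16 of 19 windows of the cholesterol list (84.2%, 16 of 23 genes matched to a window). In the mitosis list it was present in 24 of 30 windows (80%, 28 of 34 genes matched), against 33.8% of all 32851 windows of this length. The S phase list, called only in part, had a share of 60% (21 of 35 windows). The share was 20.7% in the luminal list, 28.6% in the muscle list and 31.2% in the adipocyte list. It was 38.2% in all genes called positive and 32.9% in all called negative. TCACNCCAC was found in 1 of 19 cholesterol windows (5.26%), that of Hmgcs1, and in 1.05% of all windows. A match describes these letters in these windows and is not a measured binding site.

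Genes of the luminal epithelium list formed a further positive group, with smaller values. Of 30 luminal genes 20 were called positive and none negative, with a median of 0.51. The members with the smallest p were keratins, the filament proteins of epithelial cells. Krt8 measured 14.58 and 14.52 at day 14 and 14.59 and 14.60 at day 28 in Cdh1F/F organoids, and 14.03 and 14.02 and then 12.40 and 12.61 in Cdh1+/F organoids, so its Cdh1F/F libraries were level across days and its Cdh1+/F libraries lay lower at day 28. Its interaction was 1.56 ± 0.14 (SE, adjusted p = 1.82e-05). Krt7 (1.94, adjusted p = 2.11e-05), Krt19 (1.56, adjusted p = 0.000888) and Krt18 (1.05, adjusted p = 0.00037) shared that direction. The list's summed normalized count lay between 88332 and 97256 in Cdh1+/F at day 28 and between 139840 and 146530 at day 14, whereas Cdh1F/F libraries held 185850 to 204090 on both days. The count of luminal calls fell to 13 without Cdh1+/F day 14 replicate b, Cdh1F/F day 14 replicate 2 or Cdh1+/F day 28 replicate a, and to 6 under the luminal scaling, which is built on the list itself. A separate list of 14 genes of hormone sensing luminal cells did not share the pattern. In it 1 gene was called positive and 1 negative, with a median of 0.11. Its positive call was lost under the luminal scaling, in limma voom, with no filter and in several leave-outs.

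Basal genes split. Krt14, the keratin of basal cells, was positive: it measured 14.74 and 14.92 at day 14 and 13.56 and 13.53 at day 28 in Cdh1+/F organoids, against 15.69 and 15.69 and then 15.96 and 15.49 in Cdh1F/F organoids, with an interaction of 1.31 ± 0.20 (SE, adjusted p = 0.000576). Contractile genes that basal cells share with smooth muscle were negative, among them Acta2 (-1.28, adjusted p = 3.13e-05) and Tagln (-1.31, adjusted p = 0.000537), and so was Dst, which links hemidesmosomes to the cytoskeleton (-0.99, adjusted p = 0.000602). In all, 3 of 20 basal genes were positive and 7 negative, and the 7 became 4 without Cdh1+/F day 14 replicate b, Cdh1F/F day 14 replicate 1 or Cdh1+/F day 28 replicate a, 4 with no variance trend and 11 under the luminal scaling. Acta2 measured 12.56 and 12.49 in Cdh1+/F and 10.93 and 10.97 in Cdh1F/F libraries at day 14, and 13.07 and 12.89 and then 10.19 and 10.08 at day 28. Fibroblast marker medians, given above, were also higher in Cdh1+/F on both days, and their part in the Acta2 value was not tested.

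**Figure D4:**
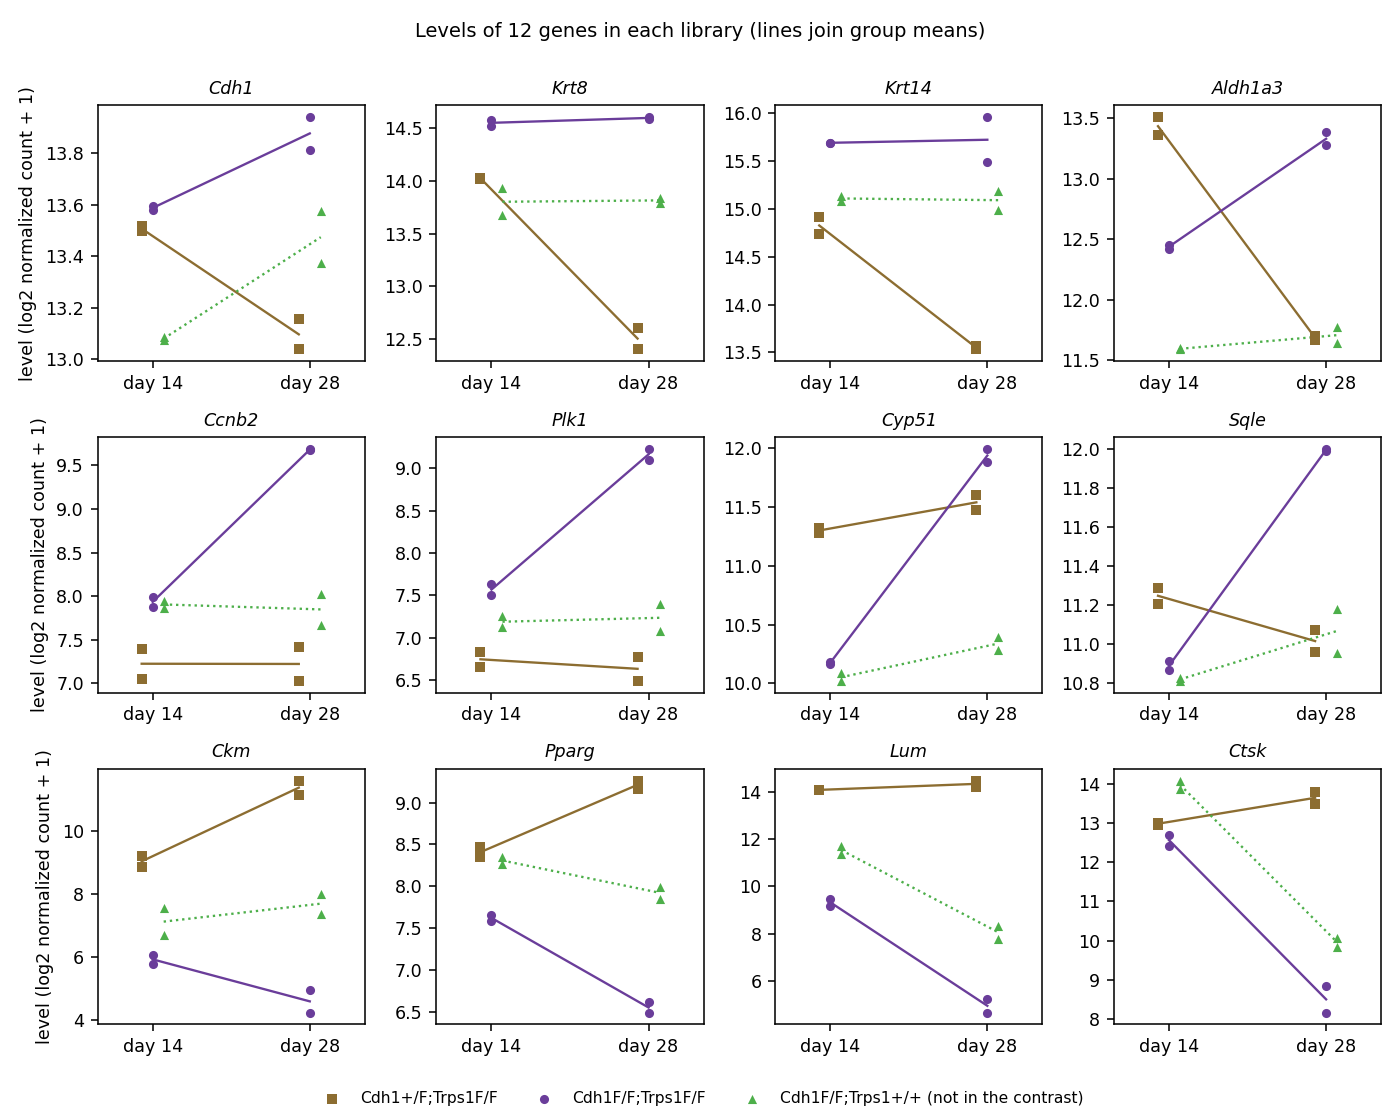
Levels of 12 genes (log2 normalized count + 1) are shown in each library at day 14 and day 28, with squares for Cdh1+/F;Trps1F/F, circles for Cdh1F/F;Trps1F/F and triangles for Cdh1F/F;Trps1+/+, outside the contrast; axes differ between panels and lines join group means. The lines of Cdh1F/F;Trps1F/F and Cdh1+/F;Trps1F/F cross for Cyp51, Sqle and Aldh1a3 and spread apart for Ckm, Pparg, Lum and Ctsk.

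Junction genes were mixed. Among 21 cadherins, catenins and nectins 5 were positive and 4 negative. Without Cdh1F/F day 14 replicate 2 these became 3 and 2, the negative calls became 2 without Cdh1+/F day 14 replicate a or Cdh1+/F day 28 replicate a, and the luminal scaling gave 2 positive and 8 negative. Beside Cdh1 itself, Pvrl4, the older symbol of nectin-4, was positive at 0.86 (adjusted p = 0.00131). Ctnnb1, which encodes beta-catenin, was negative: it measured 14.80 and 14.70 in Cdh1+/F and 15.58 and 15.56 in Cdh1F/F libraries at day 14, and 14.96 and 14.99 and then 15.20 and 15.10 at day 28, with an interaction of -0.65 ± 0.13 (SE, adjusted p = 0.00349). Beta-catenin transcript was higher in Cdh1F/F on both days, by less at day 28. Ctnna2, an alpha-catenin of neurons, was low throughout and had the highest value of the list, 2.69 (adjusted p = 0.00565). Of 23 tight junction genes 5 were positive, led by Cldn7 (0.77, adjusted p = 0.00165) and Marveld2, or tricellulin (0.60, adjusted p = 0.00281), and of 30 genes of desmosomes and cornification 8 were positive, among them the plakophilin Pkp1 (0.75, adjusted p = 0.0016) and periplakin, Ppl (0.65, adjusted p = 0.00883). Neither of these lists had a negative call with all libraries and the deposited scaling. Without Cdh1F/F day 28 replicate 2 the tight junction list had 1, and without Cdh1+/F day 28 replicate b the desmosome list had 2. Under the luminal scaling Marveld2, Pkp1 and Ppl were at 0.28 with adjusted p = 0.213, 0.43 with adjusted p = 0.0954 and 0.33 with adjusted p = 0.224, and the tight junction list had 1 positive and 2 negative calls and the desmosome list 4 and 1. The positive tight junction count fell to 2 without 1 of 5 libraries (Cdh1+/F day 14 replicate b, either Cdh1F/F day 14 library, Cdh1+/F day 28 replicate a or Cdh1F/F day 28 replicate 1), to 3 without Cdh1+/F day 28 replicate b, and to 2 with no filter or no variance trend, and it was 8 in a fit of the 8 libraries alone. The positive desmosome count fell to 4 without Cdh1F/F day 14 replicate 2, and to 5 without Cdh1+/F day 14 replicate b or Cdh1F/F day 14 replicate 1 or with the stricter filter of 50.

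Skeletal muscle genes were the most uniform negative group. Of 25 kept members 24 were called negative and none positive, with a median of -2.81, and the remaining member was negative without passing the test. The list holds the sarcomere's filaments and motors, the calcium machinery and the factors of muscle identity. Its median level was 9.86 and 9.91 at day 14 and 11.55 and 11.17 at day 28 in Cdh1+/F organoids. In Cdh1F/F organoids it was 6.9997 and 7.20 and 6.20 and 5.46. Ckm, the creatine kinase of muscle (chr7:19404776-19422841, GRCm38), measured 8.84 and 9.20 at day 14 and 11.58 and 11.14 at day 28 in Cdh1+/F organoids, against 5.77 and 6.06 and then 4.95 and 4.22 in Cdh1F/F organoids. The genotypes did not overlap on either day, and the interaction was -3.67 ± 0.44 (SE, adjusted p = 0.000127), a 12.7-fold change of the ratio. Ttn, the molecular spring titin, read 10.24 and 10.26 in Cdh1+/F and 7.87 and 8.03 in Cdh1F/F libraries at day 14, and 12.05 and 11.84 and then 6.31 and 6.11 at day 28, with -3.44 ± 0.20 (SE, adjusted p = 9.27e-07). Tnnt3, the troponin T of fast fibres, had -3.37 (adjusted p = 3.4e-05), Neb, the thin filament ruler nebulin, -3.14 (adjusted p = 2.28e-05), and Myh1, a myosin heavy chain, -3.12 (adjusted p = 4.59e-05). Adult and developmental myosin heavy chains are related in sequence, so some reads may be divided among them. Several of the largest negative values outside the list also belong to muscle: Trdn, or triadin of the calcium release complex (-3.67, adjusted p = 1.24e-05), Ckmt2, the mitochondrial creatine kinase of muscle (-4.24, adjusted p = 1.29e-05), Ppp1r3a, the glycogen-binding subunit of muscle phosphatase (-4.50, adjusted p = 0.000397), and Synpo2l and Txlnb (-3.74, adjusted p = 1.64e-05, and -4.14, adjusted p = 5.65e-05). In every leave-out of 1 library the list kept 22 or 23 negative calls and no positive one. The stretch before the RefSeq start of Ckm follows (chr7:19410844-19411093, plus strand, GRCm38.p6), with capitals at CAGCTG, an E-box that MyoD family factors bind. It lies within the gene span given above, which is from another annotation, GENCODE M21.
Ckm: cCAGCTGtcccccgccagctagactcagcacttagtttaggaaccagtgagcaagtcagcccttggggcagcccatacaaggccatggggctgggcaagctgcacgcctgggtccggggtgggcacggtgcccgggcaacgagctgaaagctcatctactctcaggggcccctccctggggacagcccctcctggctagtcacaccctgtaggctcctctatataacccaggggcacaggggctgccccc

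CAGCTG, which reads the same on both strands, was present in 9 of 21 windows of the muscle list (42.9%, 20 of 25 genes matched), against 13% of all windows, 16.9% in all genes called negative and 12.3% in all called positive.

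Adipocyte genes gave the largest single values. Of 16 members 11 were called negative and none positive, with a median of -1.98. Pparg, the master regulator of fat cell differentiation, measured 8.35 and 8.47 at day 14 and 9.16 and 9.26 at day 28 in Cdh1+/F organoids, against 7.66 and 7.59 and then 6.49 and 6.62 in Cdh1F/F organoids, with an interaction of -1.87 ± 0.17 (SE, adjusted p = 2.31e-05). Plin4, a lipid droplet coat protein, read 9.23 and 8.91 in Cdh1+/F and 8.83 and 8.53 in Cdh1F/F libraries at day 14, and 10.93 and 11.03 and then 7.51 and 7.92 at day 28, with -2.87 ± 0.31 (SE, adjusted p = 5.97e-05). For both genes the genotypes did not overlap at day 28, and the difference of Plin4 at day 14 was -0.39. Adipoq, the fat cell hormone adiponectin, had 13 and 14 reads in Cdh1+/F and 8 and 18 in Cdh1F/F at day 14, then 227 and 243 in Cdh1+/F and 3 and 0 in Cdh1F/F at day 28. The ratio of Cdh1+/F to Cdh1F/F was 148 times as high at day 28 as at day 14 (95% counting interval 45.6 to 647, adjusted p = 0.000168 in limma). Cidec, which fuses lipid droplets, had 8 and 5 reads in Cdh1+/F and 14 and 19 in Cdh1F/F at day 14, and 159 and 143 against 1 and 0 at day 28. Its ratio was 783 times as high at day 28 (interval 126 to 27828, adjusted p = 2.1e-05). These counting intervals vary only the reads of Cdh1F/F at day 28 and hold the other groups fixed. They leave out the counting error of those groups and the spread between libraries, so they are too narrow. Plin2, the droplet coat protein found in all cell types that store lipid, had the far smaller value of -0.57 (adjusted p = 0.00229).

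Fibroblast, matrix and related genes were negative in part. Of 24 fibroblast genes 9 were negative and 3 positive, with a median of -0.72. The list's summed normalized count was lower at day 28 in both genotypes. In Cdh1+/F it was 995110 and 903150 at day 14 and 707520 and 600090 at day 28. In Cdh1F/F it was 83816 and 82836 and then 76334 and 63984. Lum, or lumican, a small proteoglycan that spaces collagen fibrils (chr10:97565128-97572703), measured 14.10 and 14.11 in Cdh1+/F and 9.17 and 9.49 in Cdh1F/F libraries at day 14, and 14.50 and 14.23 and then 4.63 and 5.23 at day 28, with an interaction of -4.65 ± 0.29 (SE, adjusted p = 1.63e-06). It was level across days in Cdh1+/F organoids, and Cdh1F/F libraries were far below them at day 14 and further below at day 28. Col1a2, a chain of type I collagen, had -2.19 ± 0.30 (SE, adjusted p = 0.000317), Mfap5 of elastic microfibrils -3.01 (adjusted p = 7.27e-05), and Lox, which crosslinks collagen, -1.74 (adjusted p = 2.84e-05). The 3 positive calls became 1 without any 1 of 6 libraries, namely either Cdh1+/F or either Cdh1F/F library of day 14, Cdh1+/F day 28 replicate b or Cdh1F/F day 28 replicate 1. The 3 also became 1 with no filter or no variance trend and 0 under the luminal scaling. The 9 negative ones became 14 in a fit of the 8 libraries alone and under the luminal scaling.

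In the matrix list 10 of 31 genes were called negative and 6 positive, with a median of -0.41. By sign alone 16 members were negative and 15 positive. The median was 0.03 under quantile normalization and 0.02 without Cdh1F/F day 28 replicate 2. The genes described next are all negative calls. Lama2, the laminin chain of muscle and Schwann cell basement membranes (chr10:26980036-27619758), measured 9.08 and 9.24 at day 14 and 6.07 and 5.72 at day 28 in Cdh1F/F organoids, and 11.62 and 11.53 and then 12.62 and 12.46 in Cdh1+/F organoids, with -4.23 ± 0.22 (SE, adjusted p = 6.94e-07). Lama4, a laminin chain of vessels and mesenchyme, differed little between genotypes at day 14 and lay lower in Cdh1F/F at day 28: it read 12.74 and 12.61 in Cdh1+/F and 12.56 and 12.58 in Cdh1F/F libraries at day 14, and 12.77 and 12.63 and then 10.82 and 10.84 at day 28, with -1.77 ± 0.12 (SE, adjusted p = 4e-06). Thbs2 and Bgn, a matricellular protein and a proteoglycan, had -2.10 (adjusted p = 0.000168) and -1.64 (adjusted p = 3.47e-05). The 6 positive calls became 3 without Cdh1+/F day 14 replicate a or Cdh1F/F day 14 replicate 2 or with no variance trend, and 1 under the luminal scaling.

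Of 28 matrix proteases and their inhibitors 12 were negative and 1 positive. Mmp11, a stromal metalloproteinase, measured 11.62 and 11.28 in Cdh1+/F and 9.77 and 9.89 in Cdh1F/F libraries at day 14, and 12.73 and 12.42 and then 7.94 and 7.85 at day 28, with -3.06 ± 0.22 (SE, adjusted p = 5.76e-06). Adam12 had -2.01 (adjusted p = 5.76e-06), Mmp13, a collagenase, -1.80 (adjusted p = 3.87e-05), and Adamts5, an aggrecanase, -1.63 (adjusted p = 9.1e-06). Factors known for mesenchymal identity were negative in 9 of 15 and positive in 1, among them Zeb2 (-2.25, adjusted p = 0.000265), Twist1 (-1.93, adjusted p = 0.00294) and Prrx1 (-1.92, adjusted p = 2.08e-05). The 1 positive call among these factors was lost without Cdh1+/F day 14 replicate b, either Cdh1F/F day 14 library or Cdh1F/F day 28 replicate 1. Fn1, the fibronectin gene, had -1.27 (adjusted p = 0.000387). Fibroblast marker medians, given above, were lower in Cdh1F/F on both days and by more at day 28. In Cdh1+/F they were 15.64 and 15.66 at day 14 and 15.71 and 15.29 at day 28. Their part in these values was not tested.

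Ctsk had the largest negative value among genes above the expression bound of the naming rule. It encodes cathepsin K, a collagen-degrading protease (chr3:95499256-95509362). Its level was 13.01 and 12.97 in Cdh1+/F and 12.43 and 12.71 in Cdh1F/F libraries at day 14, and 13.81 and 13.50 and then 8.84 and 8.15 at day 28, so Cdh1F/F minus Cdh1+/F was -0.42 at day 14 and -5.16 at day 28, and the interaction was -4.74 ± 0.26 (SE, adjusted p = 8.92e-07), a 26.7-fold change of the ratio. Cadm3, an adhesion molecule of neural cells, changed its order: it measured 8.75 and 8.83 in Cdh1+/F and 9.17 and 9.40 in Cdh1F/F libraries at day 14, and 9.52 and 9.49 and then 5.17 and 5.79 at day 28, higher in Cdh1F/F at day 14 and lower at day 28, with -4.52 ± 0.36 (SE, adjusted p = 8e-06). Fgl2, a secreted fibrinogen-like protein, had -4.47 (adjusted p = 2.31e-05).

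Complement, the cascade of plasma proteins that marks targets for uptake, had 10 of 20 genes negative and none positive, with a median of -0.67. C3, the hub of the cascade, measured 15.21 and 15.28 at day 14 and 15.15 and 15.02 at day 28 in Cdh1+/F organoids, against 13.43 and 13.28 and then 11.62 and 11.71 in Cdh1F/F organoids, with -1.53 ± 0.15 (SE, adjusted p = 3.13e-05). C2 had -2.62 (adjusted p = 0.000127), C1ra -1.66 (adjusted p = 8.46e-05), and C4b -2.29 (adjusted p = 2.78e-05), the last with a near-identical copy, C4a, that could share its reads. The count became 6 without Cdh1+/F day 14 replicate a or either Cdh1+/F day 28 library and with no variance trend, and 1 positive call appeared without Cdh1F/F day 14 replicate 2, with a pseudocount of 10 and with quantile normalization. Of 19 class I antigen presentation genes 4 were negative, among them B2m, the light chain of class I molecules (-1.13, adjusted p = 0.000824), and none was positive; the luminal scaling gave 7 negative. Secreted antimicrobial and acute phase proteins went both ways, with 6 of 19 positive and 5 negative. Positive calls became 3 without Cdh1+/F day 14 replicate b, Cdh1F/F day 14 replicate 2 or Cdh1+/F day 28 replicate a and 2 under the luminal scaling. Negative calls became 3 without Cdh1+/F day 14 replicate b, Cdh1F/F day 14 replicate 1 or Cdh1+/F day 28 replicate b and with no variance trend.

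The unfolded protein response list had 9 of 30 negative and none positive, with a median of -0.21. Ddit3, the stress factor CHOP, had -1.19 (adjusted p = 0.000178), and Derl3, of low level and part of the retrotranslocation machinery, -1.97 (adjusted p = 0.00892). Derl3 missed the threshold in limma voom (-1.92, adjusted p = 0.0517) and with quantile normalization (-1.42, adjusted p = 0.0529). The count became 3 without Cdh1F/F day 14 replicate 2 or Cdh1+/F day 28 replicate a, 4 without Cdh1+/F day 14 replicate b or Cdh1+/F day 28 replicate b, and 5 without Cdh1+/F day 14 replicate a or with no variance trend. Under the luminal scaling it was 18.

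Macrophage genes had more positive than negative calls. Of 19 kept, 7 were positive and 1 negative, with a median of 0.77. C1qc, a chain of C1q made by macrophages, measured 8.08 and 8.50 at day 14 and 4.13 and 4.01 at day 28 in Cdh1+/F organoids, against 5.47 and 5.96 and then 4.04 and 3.10 in Cdh1F/F organoids, with 2.08 ± 0.46 (SE, adjusted p = 0.00651). C1qb read 7.71 and 7.97 in Cdh1+/F and 5.31 and 5.76 in Cdh1F/F libraries at day 14, and 4.002 and 4.30 and then 3.63 and 3.30 at day 28, with 1.62 ± 0.43 (SE, adjusted p = 0.0184), a call that was lost without Cdh1+/F day 14 replicate b, Cdh1+/F day 28 replicate a or Cdh1F/F day 14 replicate 1 (values of 1.49 with adjusted p = 0.0781, 1.47 with adjusted p = 0.0663 and 1.39 with adjusted p = 0.0832). Both were lower in Cdh1F/F at day 14 and low in both genotypes at day 28, so the positive value came with a lower Cdh1+/F level at day 28. Emr1, the older symbol of the F4/80 antigen gene Adgre1, had 1.19 (adjusted p = 0.012), and 1.11 with adjusted p = 0.0546 and 1.03 with adjusted p = 0.0595 without Cdh1+/F day 14 replicate b and Cdh1F/F day 14 replicate 1, and 0.87 with adjusted p = 0.0658 under the luminal scaling. Cd14, an endotoxin co-receptor also found on epithelium, was level in Cdh1F/F and lower at day 28 in Cdh1+/F: it read 12.51 and 12.45 at day 14 and 12.47 and 12.57 at day 28 in Cdh1F/F organoids, and 12.44 and 12.43 and then 11.16 and 11.25 in Cdh1+/F organoids, with 1.27 ± 0.10 (SE, adjusted p = 9.26e-06). The count of positive calls was 2 without Cdh1+/F day 14 replicate b or Cdh1F/F day 14 replicate 1, 3 without Cdh1+/F day 28 replicate a, 4 without Cdh1F/F day 28 replicate 1 or under the luminal scaling, and 11 without Cdh1F/F day 28 replicate 2. The 1 negative call was lost in 7 of the 8 leave-outs, the exception being Cdh1F/F day 28 replicate 2. Endothelial genes were mixed, with 2 of 19 positive, Pecam1 at 1.27 (adjusted p = 0.0052) among them, and 3 negative, led by Vwf at -2.24 (adjusted p = 0.00525). The 2 became 1 without Cdh1+/F day 14 replicate b or either Cdh1+/F day 28 library, and the 3 became 5 in the fit of the 8 libraries alone and under the luminal scaling. Schwann and neural cell genes had 2 positive calls and 1 negative, with the positive ones at 1 or 0 in 7 of the 8 leave-outs, the exception being Cdh1+/F day 28 replicate b.

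Aldh1a3 had the smallest adjusted p of the genes named here. It encodes a retinaldehyde dehydrogenase that makes retinoic acid and marks luminal progenitors (chr7:66390890-66427517). Its level was 13.36 and 13.51 in Cdh1+/F and 12.45 and 12.42 in Cdh1F/F libraries at day 14, and 11.70 and 11.67 and then 13.38 and 13.28 at day 28. Cdh1F/F was lower than Cdh1+/F at day 14 and higher at day 28 with no overlap on either day, and the interaction was 2.64 ± 0.11 (SE, adjusted p = 1.09e-07), a 6.25-fold change of the ratio. Crip1, a LIM domain protein, and Plagl1, an imprinted zinc finger gene, also exchanged order. Crip1 measured 10.97 and 10.91 at day 14 and 12.11 and 11.88 at day 28 in Cdh1F/F organoids, and 11.15 and 11.24 and then 10.03 and 9.84 in Cdh1+/F organoids, with 2.32 ± 0.15 (SE, adjusted p = 1.94e-06), and Plagl1 had 2.02 ± 0.34 (SE, adjusted p = 0.00129). Plb1, a phospholipase, did so too at 1.95 ± 0.19 (SE, adjusted p = 3.36e-05).

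Other large positive values belonged to genes that stood higher in Cdh1F/F on both days. Aqp5, a water channel of glandular ducts, measured 11.14 and 10.81 in Cdh1+/F and 12.18 and 12.01 in Cdh1F/F libraries at day 14, and 8.94 and 9.08 and then 12.09 and 12.44 at day 28, with 2.14 ± 0.18 (SE, adjusted p = 1.29e-05). Ugt8a, the galactosyltransferase of galactosylceramide synthesis, read 5.54 and 5.30 at day 14 and 3.32 and 3.84 at day 28 in Cdh1+/F organoids, against 8.89 and 8.97 and then 9.24 and 9.66 in Cdh1F/F organoids, with 2.36 ± 0.30 (SE, adjusted p = 0.00017). Defb1, an epithelial antimicrobial peptide, had 2.56 ± 0.56 (SE, adjusted p = 0.00663), or 2.49 with adjusted p = 0.0507 in limma voom, on levels that were low in Cdh1+/F organoids, 3.22 and 3.70 at day 14 and 1.32 and 3.02 at day 28. Papln, the matrix protein papilin, had 2.004 ± 0.30 (SE, adjusted p = 0.00057).

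Alb, Sfrp2, Hal and Col26a1 belonged to the 102 positive calls (8.66%, against 23.7% of all kept genes) whose dose difference kept its sign and was smaller at day 28. In these 4 genes it was negative on both days. Alb, the serum albumin gene, measured 9.65 and 9.57 at day 14 and 6.46 and 6.82 at day 28 in Cdh1+/F organoids, against 4.82 and 4.35 and then 4.21 and 4.78 in Cdh1F/F organoids, with 2.88 ± 0.67 (SE, adjusted p = 0.0093) and a call that limma voom on recovered reads did not make, at 2.83, adjusted p = 0.062. Sfrp2, a secreted Wnt inhibitor of fibroblasts, read 11.49 and 11.73 in Cdh1+/F and 4.44 and 4.21 in Cdh1F/F libraries at day 14, and 9.73 and 9.65 and then 4.13 and 4.85 at day 28, with 2.09 ± 0.33 (SE, adjusted p = 0.000869). Hal, a histidine-degrading enzyme, had 2.01 ± 0.35 (SE, adjusted p = 0.00166), and Col26a1, a collagen, 2.05 ± 0.45 (SE, adjusted p = 0.00692). In all 4 the Cdh1+/F libraries were lower at day 28 than at day 14, and for Col26a1 the Cdh1F/F libraries were also higher.

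Milk genes had 3 of 18 positive and 1 negative, with 5 positive under quantile normalization and in the fit of the 8 libraries alone, and 2 negative without Cdh1F/F day 28 replicate 1 and under the luminal scaling. Csn2, the beta-casein gene, measured 7.06 and 7.42 in Cdh1+/F and 5.002 and 4.96 in Cdh1F/F libraries at day 14, and 4.73 and 5.23 and then 5.88 and 5.02 at day 28, with 2.73 ± 0.51 (SE, adjusted p = 0.00236). Folr1 had 1.08 (adjusted p = 0.00137) and Ltf, or lactoferrin, 0.90 (adjusted p = 0.00824), or 0.58 with adjusted p = 0.0908 under the luminal scaling.

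Signalling lists other than the GATA list had calls in both directions. In the TGF-beta and BMP list 5 of 29 were positive and 8 negative: Inhba, the activin subunit, was positive and measured 8.77 and 8.76 in Cdh1+/F and 9.27 and 9.24 in Cdh1F/F libraries at day 14, and 6.92 and 7.01 and then 9.30 and 9.12 at day 28, with 1.75 ± 0.15 (SE, adjusted p = 1.64e-05), while Tgfb1 and the receptor Tgfbr1 were negative at -0.81 (adjusted p = 0.00154) and -0.83 (adjusted p = 0.00145). The list had 5 negative calls without Cdh1F/F day 14 replicate 2, and 2 positive and 14 negative under the luminal scaling. Wnt genes had 6 of 28 positive and 4 negative, with Wnt5b at 1.11 (adjusted p = 0.00069) and Lef1, a nuclear partner of beta-catenin, at -3.64 (adjusted p = 5.25e-05). Lef1 read 4.14 and 4.16 in Cdh1+/F and 5.41 and 4.86 in Cdh1F/F libraries at day 14, and 5.32 and 5.69 and then 2.85 and 2.87 at day 28, higher in Cdh1F/F at day 14 and lower at day 28. The Wnt list had 2 negative calls without Cdh1+/F day 14 replicate b, and 3 positive and 7 negative under the luminal scaling.

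Notch genes had 5 of 20 positive and 2 negative, with the receptor Notch3 at 0.84 (adjusted p = 0.00736), or 0.53 with adjusted p = 0.0568 under the luminal scaling. The Notch count rested on single libraries: 1 was positive and none negative without either Cdh1+/F day 14 library or without Cdh1F/F day 14 replicate 2, 2 were positive and none negative without Cdh1+/F day 28 replicate a, and 3 were positive without Cdh1F/F day 14 replicate 1, Cdh1+/F day 28 replicate b or Cdh1F/F day 28 replicate 1. The luminal scaling gave 1 positive and 6 negative. In the EGF family Epgn, the ligand epigen, had 1.88 (adjusted p = 0.000353) and Egfr -0.56 (adjusted p = 0.00651), with 3 of 18 positive and 2 negative in all; without Cdh1F/F day 14 replicate 2 and with no variance trend 1 of each was called, the luminal scaling left 1 positive, and the negative count was also 1 without Cdh1+/F day 14 replicate b, Cdh1F/F day 14 replicate 1, Cdh1+/F day 28 replicate a or Cdh1F/F day 28 replicate 2. YAP and TAZ targets had 5 of 20 in each direction, among them Ankrd1 at 1.23 (adjusted p = 0.00256) and Ctgf at -0.77 (adjusted p = 0.00151). Positive YAP and TAZ calls fell to 3 in 6 of the 8 leave-outs (all but Cdh1+/F day 28 replicate b and Cdh1F/F day 28 replicate 1) and to 2 under the luminal scaling. Negative ones fell to 2 without Cdh1F/F day 14 replicate 1 and to 3 without Cdh1F/F day 14 replicate 2, Cdh1+/F day 28 replicate a or either Cdh1F/F day 28 library. In the GATA list, which holds Trps1, 2 of 8 were negative and none positive: Gata6 had -2.30 (adjusted p = 0.00354) and Zfpm2, a cofactor of GATA factors, -2.76 (adjusted p = 0.0102), on low levels.

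A few lists had fewer calls than the 19.2% of all genes with the deposited scaling. Oxidative phosphorylation had 1 of 32 called, Ndufa4, a call that was lost without any 1 of 6 libraries, with a median of -0.09 and no member beyond -0.36 or 0.40. Under the luminal scaling 10 of the 32 were negative and none positive. The interferon response had 2 of 35 positive, one of them Ddx58 at 0.49 (adjusted p = 0.00937), or 0.17 with adjusted p = 0.473 under the luminal scaling, and 1 negative, Gbp2 at -1.23 (adjusted p = 0.0012). The interferon list had 6 negative calls without Cdh1F/F day 28 replicate 1, 2 negative without Cdh1+/F day 14 replicate a, 4 positive without Cdh1F/F day 28 replicate 2 and 1 positive in each of the other 7 leave-outs, and it had 7 positive under quantile normalization and none positive and 7 negative under the luminal scaling. AP-1 and immediate early genes had 3 of 22 positive and none negative, and no call remained under the luminal scaling or without Cdh1+/F day 14 replicate a, either Cdh1F/F day 14 library, Cdh1+/F day 28 replicate a or Cdh1F/F day 28 replicate 2. Without Cdh1+/F day 14 replicate b 1 was called.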

How the data were processed

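Primary mammary organoids were profiled by RNA-seq (AllPrep extraction, RNA integrity number above 8, TruSeq libraries, strand not stated), per the labels' protocols. Per the submitters' processing notes reads were processed with TopHat and HTSeq on GRCm38. For these tools no version is given in the sources used here, nor is the gene annotation. The deposited values are log2 normalized counts with a pseudocount of 1, made by the authors. Dividing by each library's smallest step gave whole reads for 100% of values, from which depth was summed.

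Of 24201 rows, 14 symbols turned into dates and 1 row without a symbol were left out. Of the 12 columns, 8 share a header with another, so replicates there are named a and b by column. A gene was kept with a normalized count plus 1 of at least 10 in at least 2 of the 12 libraries. limma 3.58.1 in R 4.3.3 fitted 12 libraries in 6 groups with a variance trend, and the interaction was called at a Benjamini-Hochberg adjusted p under 0.05 over all kept genes. The fit was tested on simulated counts with the same dispersion for every gene and group. That test does not measure how reliable the calls are in the real libraries. Strand is unknown, so overlapping genes and close paralogs are uncertain. Coordinates are from GENCODE M21, which held 95.1% of the kept symbols, and older symbols in the table were matched through RefSeq synonyms.

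Named genes are Trps1, Cdh1, the 12 largest values in each direction among calls whose 4 library differences at day 28 all lay beyond the 4 at day 14 and whose highest group mean was above the median over kept genes (9.31), leaving out clone, predicted, pseudogene and mitochondrial symbols, and up to 4 called members with the smallest p of each list. Not all of them are described. The interaction, the lists and the rule were chosen with earlier results of these data known. Where a group had 1 to 3 reads, the ratio of summed normalized counts is given with a 95% counting interval. The interval varies the reads of that group only. Alternatives were the filter, the pseudocount, 3 other scalings, the 8 libraries alone, no variance trend, limma voom on recovered reads and leaving out each library.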

Additional observations from a re-analysis of the deposited data

Results flagged for a closer look

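The Cdh1 dose difference was not the same on the 2 days for 3038 genes by the test of the difference itself, with 1178 higher and 1860 lower at day 28 (limma, adjusted p under 0.05). Groups of 2 libraries are too small for a search for single samples that stand apart.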

How the results depend on the processing

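With all 8 libraries kept (no filter or a stricter one, a pseudocount of 10, a common median, quantile normalization, the 8 libraries alone, no variance trend and limma voom), calls of the day by Cdh1 dose interaction ran from 2469 to 3250, positive calls from 911 to 1459, negative calls from 1558 to 1991 and calls of at least 2-fold from 1348 to 1570. Leaving out 1 library gave 1961 to 2829 calls, 669 to 1052 interaction calls higher, 1248 to 1796 interaction calls lower and 1138 to 1597 of at least 2-fold, with 1911 of the 1961 among the 3038. The scaling on luminal genes, added after the data were seen, gave 430 positive and 3674 negative calls, by construction lowering every interaction alike. Of 110 genes given with values and called, none changed sign under any alternative and 95 were called under all of them. The luminal scaling lost 10, limma voom 4, quantile normalization 1, and a left-out library 3. No paired analysis was possible because the contrast needs both Cdh1 genotypes and the columns of Cdh1+/F;Trps1F/F carry no replicate numbers that tell its libraries apart; those of Cdh1F/F;Trps1F/F do. With 2 libraries a group, precision rests on the pooled spread of 6 groups, and genes of a few reads in 14858175 to 24826253 are limited by counting. The spread was not equal between groups. The chi-square per degree of freedom of reads between replicates was 15.16 in Cdh1F/F;Trps1F/F at day 28. In the other groups of the contrast it was 8.322 to 9.059. Cdh1F/F;Trps1+/+ had 10.67 at day 14 and 19.45 at day 28. The pooled spread may thus be too small for Cdh1F/F at day 28.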
